A study of Mus musculus with 435 samples.

Results

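Stromal cells of the fetal mouse testis with high Acta2 mRNA were set against stromal cells with almost none, within the same captures of E13.5 and E16.5 (E, embryonic day). The series holds values for 400 single cells, of which 180 came from these stages. Values are RPKM, reads scaled to the length of the transcript and to the number of reads of the cell. Cells with 2 or more of 6 Sertoli genes (Amh, Dhh, Ptgds, Aard, Mro, Cst9) at 5 RPKM or more, or 2 or more of 4 Leydig genes (Cyp17a1, Cyp11a1, Hsd3b1, Insl3) at 100 RPKM or more, were set aside. This removed 80 cells and left 100 stromal cells. Of these, 83 had Acta2 at 100 RPKM or more (Acta2-high) or below 1 RPKM (Acta2-negative). After 1 Acta2-negative cell with fewer than 3000 detected genes was left out, there were 44 Acta2-high cells and 38 Acta2-negative cells, with 17 Acta2-intermediate cells between the limits.

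Acta2 encodes smooth muscle alpha-actin, a building block of contractile stress fibres. In the testis it marks peritubular myoid cells, the flat contractile cells that wrap the seminiferous cords and help Sertoli cells to lay down the basement membrane, and it also marks the smooth muscle of vessel walls. The interstitium between the cords holds progenitor cells that express Nr2f2, Pdgfra and Tcf21 and are known as a source of fetal Leydig cells. Desert hedgehog made by Sertoli cells acts on such stromal cells through the receptor Ptch1 and the Gli factors.

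All cells were from XY gonads of Nr5a1-eGFP embryos on a mixed background and were sorted for green fluorescence and exclusion of a dead-cell dye, so only cells with the reporter were sampled. The transgene reports Nr5a1, a transcription factor of gonadal somatic cells. Each of E13.5 and E16.5 had 2 captures on Fluidigm C1 chips, which separate single cells into wells, and these captures are the replicates. The embryos behind a capture are not named. The labels give 10 M reads per cell for E16.5 and 25 M for E13.5, so stage and sequencing depth cannot be told apart. E13.5 capture 1 was made on a medium chip and the others on small ones. Among all 180 cells of E13.5 and E16.5, with those set aside included, the closest pair had a correlation of 0.663 over log2 values. No pair looked like 1 cell recorded at 2 wells.

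The captures contributed unequally. E13.5 capture 1 gave 18 Acta2-high and 9 Acta2-negative cells, and E13.5 capture 2 gave 11 and 25. E16.5 capture 1 gave 9 and 1, and E16.5 capture 2 gave 6 and 3. A class needed 3 cells in a capture, so the paired comparison rests on 3 captures, and its only E16.5 pair has 3 Acta2-negative cells. The median number of genes detected per cell was 5425 ± 480 in Acta2-high cells and 5079 ± 657 in Acta2-negative cells (SD over 3 captures). It was higher in Acta2-high cells in 3 of 3 captures, by 346 ± 297 (SD), with a two-sided exact sign-flip permutation p of 0.25, the smallest that 3 pairs allow.

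Acta2 chose the classes, so its values are a description. Its lowest, median and highest values were 113.9, 519 and 5606 RPKM in Acta2-high cells. Among Acta2-negative cells, 29 of 38 were listed at 0 and the highest had 0.798 RPKM. Acta2-high cells had capture means of 1240 and 525 RPKM in E13.5 captures 1 and 2, and of 1829 and 645 RPKM in E16.5 captures 1 and 2. Near the upper limit, the lowest Acta2-high cells had 113.9 and 127 RPKM and the highest cells below it 91.1 and 88.4 RPKM. Near the lower limit, the highest cells below it had 0.798 and 0.585 RPKM and the lowest above it 3.53 and 4.01 RPKM. Intermediate cells had a median of 32.8 RPKM. Acta2 lies on chromosome 19 (34241090 to 34255590, minus strand, GENCODE M21 on GRCm38). Acta1, Actc1 and Actg2 are near-identical muscle actins, and how reads were divided between them is not given, so Acta2 and Actg2 values carry that uncertainty. In Acta2-high cells Acta1 was listed at 0 in every capture and Actc1 averaged at most 0.177 RPKM in a capture.

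**Figure D1:**
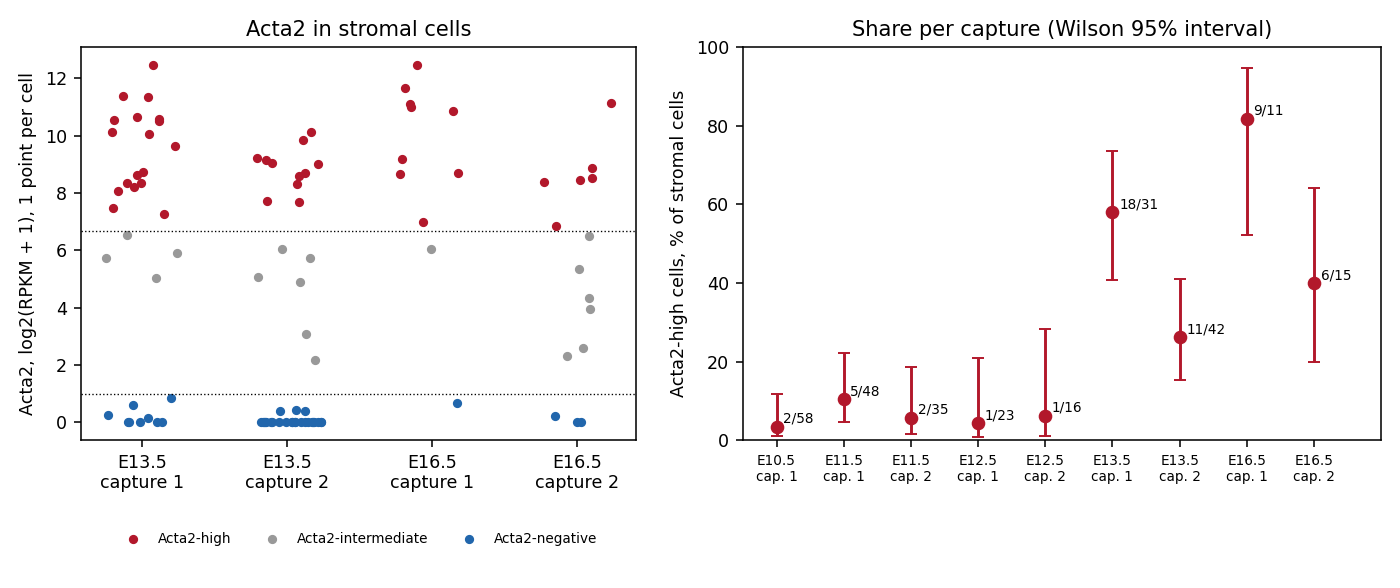
Left, Acta2 in each stromal cell of the E13.5 and E16.5 captures as log2(RPKM + 1), coloured by class, with dotted lines at 100 and 1 RPKM. Right, the share of Acta2-high cells among stromal cells in 9 captures, with Wilson 95% intervals as bars and cell counts beside the points. The 4 captures of E13.5 and E16.5 lie between 26.2% and 81.8%, and the 5 earlier ones at 10.4% or below. In the earlier captures stromal means only that a cell was below the Sertoli and Leydig limits.

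The same limits were applied to all 9 captures. Stromal markers were checked only at E13.5 and E16.5, so in earlier captures the label rests on these limits alone. The surface epithelium genes Wt1 and Aldh1a2 averaged 160 and 144 RPKM in Acta2-negative cells of E11.5 capture 1. In those of E13.5 captures 1 and 2 Wt1 had 49.8 and 70.2 RPKM, and Aldh1a2 63.9 and 87.2 RPKM. Early and late shares may thus be of unlike cells. Acta2-high cells were 2 of 58 stromal cells at E10.5 (3.45%, Wilson 95% interval 0.951 to 11.7%). They were 5 of 48 (10.4%) and 2 of 35 (5.71%) at E11.5, and 1 of 23 (4.35%) and 1 of 16 (6.25%) at E12.5. In E12.5 capture 2 a pair of cells had a correlation of 0.998, and with that pair counted once the share was 6.67%. At E13.5 the shares were 58.1% (40.8 to 73.6%) and 26.2% (15.3 to 41.1%). At E16.5 they were 81.8% (52.3 to 94.9%) and 40.0% (19.8 to 64.3%). Each capture of E13.5 and E16.5 was above each earlier one, while captures of 1 stage differed widely. The intervals cover counting error only, and the rule that sets the share was chosen on these cells, so no test was made. The Sertoli and Leydig limits removed 1 cell from the E10.5 capture, 4 and 6 cells from those of E11.5, 7 and 22 from E12.5 captures 1 and 2, 25 and 14 from E13.5 captures 1 and 2, and 21 and 20 from E16.5 captures 1 and 2.

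Genes that the rule did not use were checked for the stromal label. Nr2f2, a nuclear receptor of interstitial mesenchyme, was at 1 RPKM or more in 100% of Acta2-high and 97.4% of Acta2-negative cells. Pdgfra, a growth factor receptor of mesenchymal cells, was found in 88.6% and 73.7% of these classes, and Tcf21, a transcription factor of gonadal mesenchyme, in 95.5% and 81.6%. The sum of 5 interstitial progenitor markers ranged from 714 to 915 RPKM over the captures in Acta2-high cells and from 480 to 650 RPKM in Acta2-negative cells, the lone cell of E16.5 capture 1 aside. Both classes thus carried these markers. The 5 germ cell markers Dppa3, Dppa5a, Dazl, Ddx4 and Pou5f1 were at 0 in both classes. Of a longer germ cell list, Kit, a receptor also made by somatic cells, was at 1 RPKM or more in 6 of 44 Acta2-high and 6 of 38 Acta2-negative cells, and Nanos3, an RNA-binding protein of germ cells, in 2 and 4 cells.

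Markers of other somatic cell types were found in both classes. Cells with 2 or more markers of such a type at 5 RPKM or more were 3 of 44 Acta2-high cells (2 coelomic epithelium, 1 endothelial) and 10 of 38 Acta2-negative cells. By capture they were 0 of 18 Acta2-high and 4 of 9 Acta2-negative cells and 2 of 11 and 5 of 25 cells at E13.5, and 1 of 9 and 0 of 1 cells and 0 of 6 and 1 of 3 cells at E16.5. E13.5 capture 1 thus held most of the difference. Among those 10, coelomic epithelium markers were met in 6, endothelial in 3 and mesonephric in 3, with a cell counted under each type it met. The 6 endothelial markers summed to 3.02 to 18.7 RPKM over captures in Acta2-high cells and to 4.51 to 343 RPKM in Acta2-negative cells, where the highest sum is that of E16.5 capture 2, with 1 such cell among 3. The 5 coelomic epithelium markers summed to 0 to 20.5 RPKM in Acta2-high cells and 0 to 68.1 RPKM in Acta2-negative cells. The 9 Sertoli markers summed to 16.9 to 206 RPKM and 35.1 to 66.9 RPKM in these classes, the lone cell of E16.5 capture 1 aside. Of these 9, 6 are genes of the cell rule, which limits their values, so the sums are a description. The highest sum is that of E16.5 capture 2, where the rule gene Cst9 averaged 134 RPKM in Acta2-high cells. In each class 8 cells had 1 Sertoli gene of the rule at 5 RPKM or more. Leaving out cells with markers of other types leaves 2 captures with 3 cells in each class, both of E13.5.

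Upstream sequence was searched for the CArG box, the element that serum response factor binds in front of many contractile genes. The 250 bases before the RefSeq start are shown for Acta2, for Myl9 and Tpm4, the most abundant other contractile genes tested, and for Cnn2, chosen after its values were seen. They are from RefSeq on GRCm38.p6, on the gene's strand, at chr19:34255374-34255623 (minus) for Acta2, chr2:156775214-156775463 (plus) for Myl9, chr8:72135038-72135287 (plus) for Tpm4 and chr10:79988350-79988599 (plus) for Cnn2. The starts differ from those of GENCODE M21, so that the windows of Acta2, Myl9 and Cnn2 lie in part, and that of Tpm4 wholly, inside the gene as GENCODE draws it. Capitals mark a CArG box with at most 1 G or C among its 6 central bases, a form chosen after seeing the data.
Acta2: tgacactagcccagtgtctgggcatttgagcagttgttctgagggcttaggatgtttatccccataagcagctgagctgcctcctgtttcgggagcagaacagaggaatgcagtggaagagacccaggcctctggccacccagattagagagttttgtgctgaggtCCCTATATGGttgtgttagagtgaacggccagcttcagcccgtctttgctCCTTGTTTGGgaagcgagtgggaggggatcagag
Myl9: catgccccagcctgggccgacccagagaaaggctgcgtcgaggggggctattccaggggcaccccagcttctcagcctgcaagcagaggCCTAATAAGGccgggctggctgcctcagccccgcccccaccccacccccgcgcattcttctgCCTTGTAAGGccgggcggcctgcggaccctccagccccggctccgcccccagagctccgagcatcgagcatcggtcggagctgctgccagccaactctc
Tpm4: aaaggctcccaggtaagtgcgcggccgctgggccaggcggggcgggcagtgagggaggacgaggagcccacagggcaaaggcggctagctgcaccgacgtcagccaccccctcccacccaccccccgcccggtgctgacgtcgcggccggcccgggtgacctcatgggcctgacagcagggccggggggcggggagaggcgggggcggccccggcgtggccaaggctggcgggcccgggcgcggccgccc
Cnn2: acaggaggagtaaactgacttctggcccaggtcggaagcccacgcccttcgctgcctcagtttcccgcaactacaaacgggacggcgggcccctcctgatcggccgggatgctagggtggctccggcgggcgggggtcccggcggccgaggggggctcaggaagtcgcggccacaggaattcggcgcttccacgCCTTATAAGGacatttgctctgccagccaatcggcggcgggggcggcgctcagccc
In the Acta2 window the boxes begin 84 and 34 bases before the start, and each has 1 G or C among the central bases. In the Myl9 window they begin 161 and 99 bases before the start, and the box of Cnn2 begins 56 bases before it. The strict box, with A or T at all 6 central places, was found in the Myl9 and Cnn2 windows and not in those of Acta2 and Tpm4. A box on 1 strand is also a box on the other, so 1 search covers both. Of 27018 windows of this length in the table, 1.4% held the strict box and 8.64% the looser one. Of the 10 contractile genes that were higher in every capture, 7 had a window, and 2 of the 7 (28.6%) held a box of either form. Tagln and Myh11 were without an entry. A match is a stretch of letters, not a measured binding site.

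Gene levels were compared as the log2 of the mean RPKM over a class plus 1, paired by capture, in limma with Benjamini-Hochberg adjustment. None of 10380 genes passed an adjusted p of 0.05 (0.0%). At an unadjusted p below 0.05 there were 410 genes (3.95%), 231 higher (2.23%) and 179 lower (1.72%) in Acta2-high cells. The smallest adjusted p was 0.287, for Itm2a. In 3 of 3 captures 1489 genes were higher (14.3%) and 914 were lower (8.81%) in Acta2-high cells, and the median log2 difference over all genes was 0.15. The gene differences between the classes that follow therefore all missed the threshold and are given as measured values with their errors.

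Genes of the contractile apparatus were more often higher in Acta2-high cells than genes at large. Of 30 listed genes beside Acta2, 24 passed the filter on low values, 10 of them were higher in 3 of 3 captures (41.7%, against 14.3% of all genes) and none was lower in 3 of 3. Among these were Tagln, Cnn2, Myl9, Tpm1, Tpm2, Tpm4, Flna, Actn1 and Myh11. The median log2 difference of the 24 was 0.69. In both E13.5 captures 15 of the 24 were higher (62.5%, against 26.1% of all genes) and none was lower (24.2% of all genes). Without cells with markers of other types, 13 of the 24 were higher in both E13.5 captures (54.2%, against 28.2% of all genes) and none was lower (20.2% of all genes).

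Tagln, an actin-binding protein of smooth muscle, averaged 162, 95.96 and 184 RPKM in Acta2-high cells of E13.5 captures 1 and 2 and E16.5 capture 2, against 104.9, 2.28 and 0.0638 RPKM in Acta2-negative cells. The gap was wide in 2 captures and narrow in E13.5 capture 1, where 1 Acta2-negative cell had 726 RPKM, and the capture means of the classes overlap. The log2 difference was 4.32 ± 1.19 (SE; limma unadjusted p = 0.00699, adjusted p = 0.919). Tagln was at 1 RPKM or more in 26 of 44 Acta2-high and 6 of 38 Acta2-negative cells. By capture this was 11 of 18 against 3 of 9 and 4 of 11 against 3 of 25 cells at E13.5, and 4 of 6 against 0 of 3 cells in E16.5 capture 2. The share was higher in Acta2-high cells in each of these captures.

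Cnn2, a calponin that is also made outside smooth muscle, averaged 250, 298 and 68.7 RPKM in Acta2-high cells of the same captures, against 124, 50.8 and 9.94 RPKM in Acta2-negative cells. The mean was higher in Acta2-high cells in 3 of 3 captures, though the means overlap across captures. Single cells overlapped also within a capture. In E13.5 capture 1 Cnn2 ran from 0.424 to 573 RPKM in Acta2-high cells and from 0 to 452 RPKM in Acta2-negative cells. Cnn2 was detected in 43 of 44 Acta2-high cells (97.7%) and 22 of 38 Acta2-negative cells (57.9%). The log2 difference was 2.07 ± 0.51 (SE; limma unadjusted p = 0.00364, adjusted p = 0.919). With log2 values averaged over cells, within E13.5, Cnn2 was the only gene that passed, at 3.79 ± 0.50 (SE) and a limma adjusted p of 0.0397. That setting was chosen after seeing the data, and over 20 settings the adjusted p of Cnn2 ran from 0.0397 to 1.

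Myl9, a regulatory light chain of smooth muscle myosin, averaged 398, 263 and 556 RPKM in Acta2-high cells, against 102.2, 94.98 and 252 RPKM in Acta2-negative cells. All 3 means of Acta2-high cells lay above all 3 means of Acta2-negative cells, and overlap is given for capture means in what follows. The log2 difference was 1.52 ± 0.31 (SE; limma unadjusted p = 0.00115, adjusted p = 0.919). Tpm1, a tropomyosin that lies along actin filaments, averaged 444, 335 and 202 RPKM in Acta2-high cells, against 239, 152 and 33.98 RPKM in Acta2-negative cells. The E16.5 mean of Acta2-high cells lay below the highest Acta2-negative mean, and single cells overlapped in E13.5 capture 1, at 222 to 778 RPKM in Acta2-high and 0.237 to 696 RPKM in Acta2-negative cells. Its log2 difference was 1.52 ± 0.40 (SE; limma adjusted p = 0.919).

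**Figure D2:**
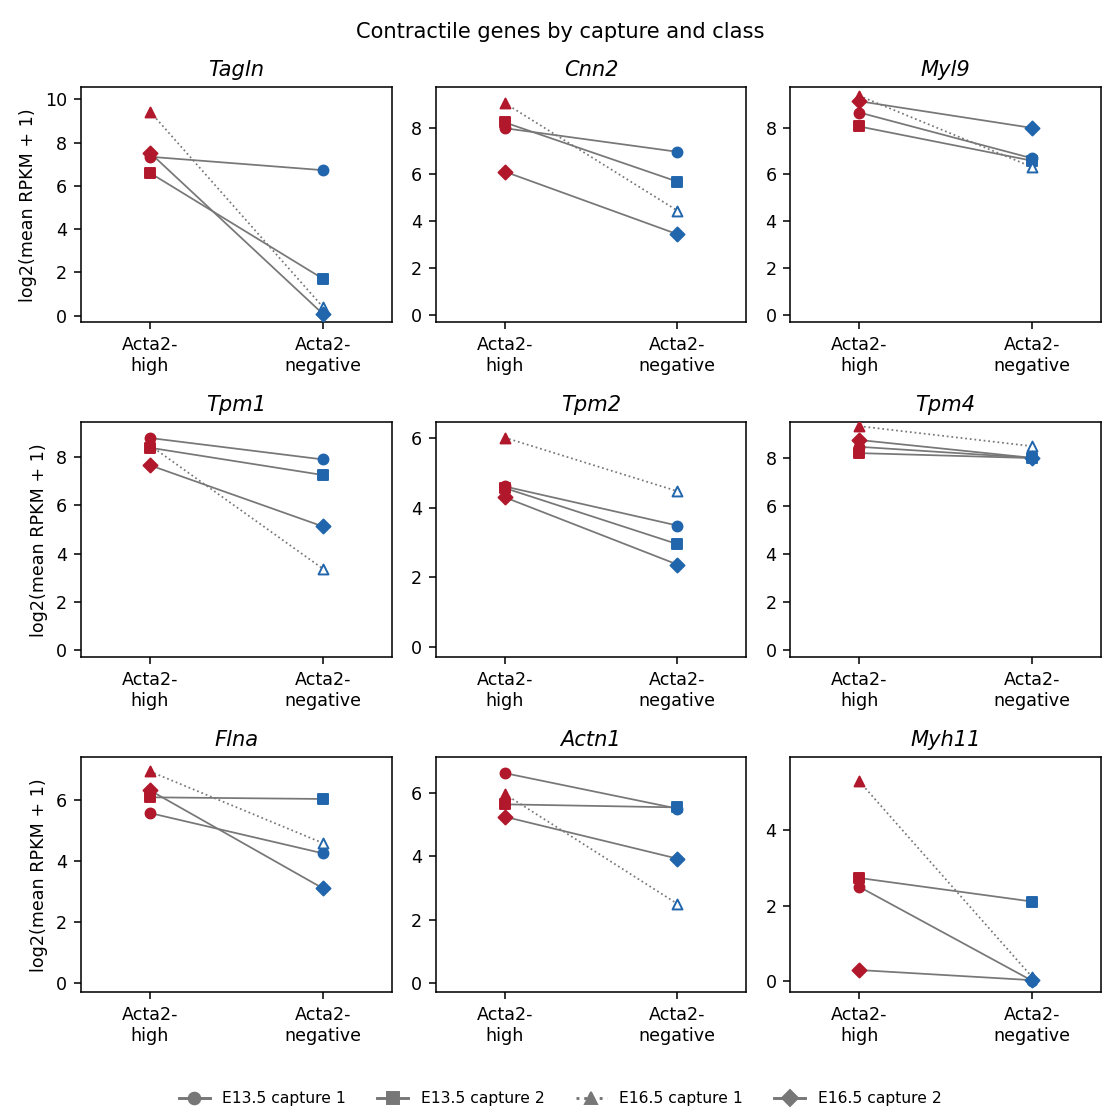
Levels of 9 contractile genes as log2(mean RPKM + 1) in Acta2-high cells (left, red) and Acta2-negative cells (right, blue), with a line for each capture. Triangles and dotted lines mark E16.5 capture 1, where the Acta2-negative value (open) is 1 cell and stayed out of the fit. Every line slopes down to the right, steeply for Tagln in 3 of the 4 captures and little for Tpm4.

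The other contractile genes of this direction had smaller or less even differences. Tpm2, a tropomyosin of muscle, averaged 21.7 ± 2.55 RPKM in Acta2-high cells and 7.05 ± 3.05 RPKM in Acta2-negative cells (SD, n = 3), without overlap. Tpm4, a tropomyosin of the general cytoskeleton, averaged 362 ± 68.9 RPKM and 258 ± 0.886 RPKM in these classes, a log2 difference of 0.47 ± 0.26 (SE). Flna, an actin crosslinker, and Actn1, which anchors actin at adhesions, differed by 1.32 and 1.12 in E13.5 capture 1 but by 0.05 and 0.10 in E13.5 capture 2. Mylk, the kinase that activates smooth muscle myosin, was detected in 35 of 44 Acta2-high and 12 of 38 Acta2-negative cells, yet its mean in E13.5 capture 2 was 10.99 RPKM in Acta2-high and 12.9 RPKM in Acta2-negative cells. Cald1, the actin-binding protein caldesmon, differed by -0.15 (limma 95% interval -1.05 to 0.75). The cytoplasmic actins Actb and Actg1 differed by 0.30 ± 0.10 and 0.43 ± 0.26 (SE).

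**Figure D3:**
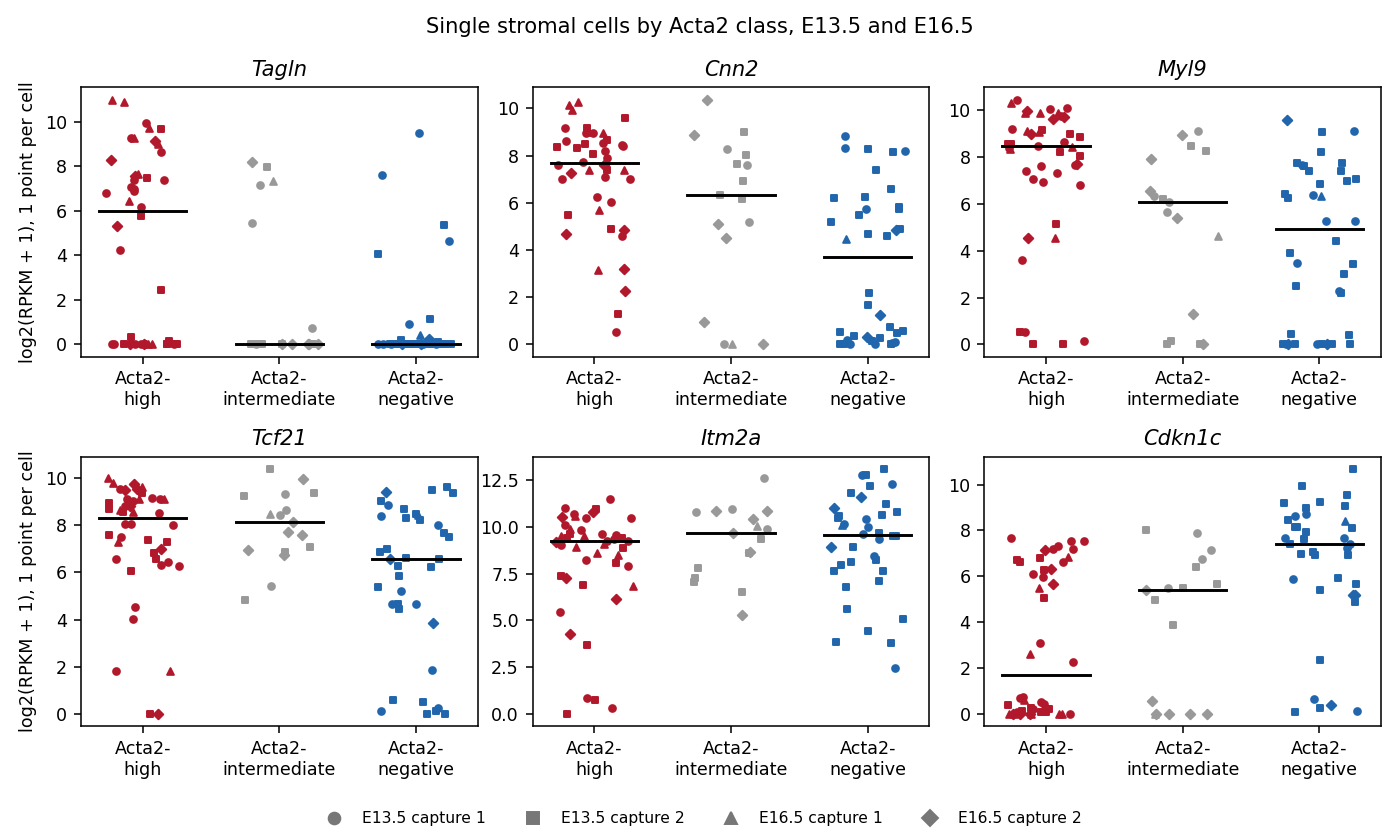
Levels of 6 genes in single stromal cells as log2(RPKM + 1), for Acta2-high, Acta2-intermediate and Acta2-negative cells from left to right. Symbols mark the capture and black bars the median of a class. The Cnn2 and Myl9 medians descend from left to right, the Tagln median is above 0 only in Acta2-high cells, and the Cdkn1c median is lowest in Acta2-high cells.

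Cells between the limits entered neither class. Cnn2 was detected in 97.7% of Acta2-high, 76.5% of Acta2-intermediate and 57.9% of Acta2-negative cells, Tagln in 59.1%, 29.4% and 15.8%, and Mylk in 79.5%, 52.9% and 31.6%. These 3 genes follow the order of Acta2. Cdkn1c, an inhibitor of cyclin-dependent kinases, ran the other way, at 22 of 44 Acta2-high, 11 of 17 intermediate and 33 of 38 Acta2-negative cells. Tcf21, at 95.5%, 100% and 81.6%, had no such order. The shares pool captures that contributed unequally, and no test was made.

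Genes of mature smooth muscle were rare. Of 5 such genes, chosen after their values were seen (Myh11, Cnn1, Actg2, Lmod1 and Des), 3 or more reached 5 RPKM in 3 of 44 Acta2-high cells, 0 of 17 intermediate cells and 0 of 38 Acta2-negative cells. All 3 cells came from E16.5 capture 1 and had Acta2 at 2208, 3256 and 5595 RPKM. The cell with 5595 RPKM had Myh11, smooth muscle myosin heavy chain, at 199 RPKM, Cnn1, smooth muscle calponin, at 294 RPKM and Lmod1, an actin nucleator, at 97.6 RPKM. The cell with 3256 RPKM had Actg2, enteric smooth muscle actin, at 42.5 RPKM and Des, the intermediate filament desmin, at 45.4 RPKM. None of the 6 Acta2-high cells of E16.5 capture 2 had any of the 5 genes at that level, so the pattern belongs to 1 capture.

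Myh11 averaged 38.5 RPKM in the Acta2-high cells of E16.5 capture 1, and 4.66, 5.66 and 0.223 RPKM in those of E13.5 captures 1 and 2 and E16.5 capture 2. Without the 3 cells its mean in E16.5 capture 1 was 15.2 RPKM, and that of Cnn1 was 19.6 RPKM, against 48.6 RPKM with them. Actg2 and Des were then listed at 0 there. Acta2 averaged 901 RPKM without the 3 cells and 1829 RPKM with them, whereas Tagln averaged 711 and 692 RPKM. Leaving them out was chosen after seeing the data, and it does not touch the paired fit, which does not hold this capture.

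Regulators of contractile genes were low and uneven. Myocd, the coactivator of serum response factor in smooth muscle, averaged 14.5, 2.45 and 4.97 RPKM in Acta2-high cells, against 0, 1.23 and 0 RPKM in Acta2-negative cells. These values do not overlap, and Myocd was detected in 12 of 44 Acta2-high and 2 of 38 Acta2-negative cells. The log2 difference was 2.39 ± 0.99 (SE; limma adjusted p = 0.919). Srf, serum response factor itself, differed by -0.49 (limma 95% interval -2.67 to 1.69). Of 11 genes listed for serum response factor and its cofactors, 3 were higher in every capture (Myocd, Filip1l, Elk4) and 2 lower (Fhl1, Elk3), with a median difference of 0.25. These shares were 27.3% and 18.2%, against 14.3% and 8.81% of all genes. Fhl2, a LIM-domain protein that binds serum response factor, averaged 18.2, 36.3 and 115.9 RPKM in Acta2-high cells, against 18.98, 21.7 and 50.8 RPKM in Acta2-negative cells. Of 18 genes for contraction signalling and calcium handling, 4 were higher (Rock1, Arhgef12, Gucy1a3, Itpr1) and 1 lower (Gucy1b3), with a median of -0.02. That is 22.2% and 5.56%, against the same shares of all genes. Gucy1a3, a subunit of the nitric oxide receptor, averaged 167 ± 65.6 RPKM in Acta2-high and 88.2 ± 50.1 RPKM in Acta2-negative cells (SD, n = 3).

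Genes listed for peritubular myoid cells and for pericytes did not share a direction. Of 16 peritubular myoid genes 10 were tested, 2 were higher in every capture (Myh11, Tagln) and 1 was lower (Ptch1), with a median difference of -0.01. Tgfbi, a secreted matrix protein, averaged 40.4, 50.5 and 6.41 RPKM in Acta2-high cells, against 1.78, 160 and 20.9 RPKM in Acta2-negative cells, so its direction changed between captures. The 6 pericyte markers summed to 14.5 to 19.2 RPKM over captures in Acta2-high cells and to 23.1 to 30.97 RPKM in Acta2-negative cells, the lone cell aside. Of a longer list of 12 pericyte and vascular wall genes 6 were tested. In every capture 1 of these was higher (Abcc9, 16.7%) and none was lower. Pdgfrb, a receptor of mural and mesenchymal cells, differed by -0.22 (limma 95% interval -1.62 to 1.18). Mcam, an adhesion molecule of vessel walls, was detected in 3 of 44 Acta2-high and 3 of 38 Acta2-negative cells.

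Genes of interstitial progenitors were present in both classes. Of 17 tested, 3 were higher in every capture (Tcf21, Wnt5a, Gli1; 17.6%, against 14.3% of all genes) and none lower (8.81% of all genes). The median difference of 0.15 equals that of all genes. Tcf21 averaged 282, 247 and 484 RPKM in Acta2-high cells, against 127, 206 and 265 RPKM in Acta2-negative cells. Its E13.5 capture 2 value in Acta2-high cells lay below the E16.5 value of Acta2-negative cells, so the classes overlap across captures. The log2 difference was 0.76 ± 0.30 (SE; limma unadjusted p = 0.0368, adjusted p = 0.919). Wnt5a, a secreted Wnt protein of mesenchyme, averaged 107.8 ± 29.9 RPKM in Acta2-high and 80.4 ± 17.7 RPKM in Acta2-negative cells (SD, n = 3), and its sign changed when the lone cell was taken in. Nr2f2 differed by 0.15 (limma 95% interval -0.55 to 0.84) and Pdgfra by 0.07 (-0.90 to 1.04).

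Hedgehog pathway genes were split. Of 11 tested, Gli1 and Gli2, activating factors of the pathway, were higher in every capture (18.2%, against 14.3% of all genes). Lower in every capture were Ptch1 and Boc, which bind the ligand, Smo, which passes the signal on, and Gli3, which yields a repressor. The lower share was 36.4%, against 8.81% of all genes. In both E13.5 captures 3 of the 11 were higher and 6 lower (27.3% and 54.5%, against 26.1% and 24.2% of all genes). Without cells with markers of other types 4 were higher and 4 lower (36.4% each, against 28.2% and 20.2%). Ptch1 averaged 16.97, 23.7 and 26.1 RPKM in Acta2-high cells, against 30.2, 46.7 and 70.03 RPKM in Acta2-negative cells, without overlap. Its log2 difference was -1.04 ± 0.65 (SE; limma adjusted p = 0.919). Gli1, a target of the pathway as Ptch1 is, averaged 11.3, 18.9 and 1.82 RPKM in Acta2-high cells, against 5.84, 8.29 and 0.21 RPKM in Acta2-negative cells. Gli1 was detected in 43.2% of Acta2-high and 21.1% of Acta2-negative cells, Ptch1 in 70.5% and 71.1%. Smo differed by -0.24 ± 0.65 (SE), and its sign changed in 3 other settings.

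The other signalling lists are read against 14.3% of all genes higher and 8.81% lower in every capture. Of 9 Notch genes, Hes1 and Heyl, targets of the pathway, were higher in every capture, and Notch1, a receptor, and Rbpj, its DNA-binding partner, were lower. Heyl averaged 44.4, 8.77 and 13.9 RPKM in Acta2-high cells, against 13.8, 4.35 and 0.0611 RPKM in Acta2-negative cells, and was detected in 18 of 44 and 6 of 38 cells. Of 18 genes for TGF-beta and activin signalling 2 were higher (Smad2, Smad4) and 2 lower (Tgfbr1, Eng). Of 15 genes for PDGF, VEGF and chemokines none was higher and 5 were lower (Pdgfa, Pdgfb, Kdr, Nrp1, Angpt2), a share of 33.3% that is above that of all genes. Wnt genes gave 2 higher and 1 lower of 22, insulin-like growth factor genes 1 and 2 of 13, BMP genes 0 and 1 of 15 and retinoic acid genes 0 and 1 of 12.

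Of 30 fibrillar and interstitial matrix genes, 8 were higher in every capture (Col5a1, Col14a1, Col16a1, Bgn, Fbn1, Fbln5, Mfap2, Mfap4) and Sparc was lower. These shares were 26.7% and 3.33%, against 14.3% and 8.81% of all genes. The median difference was 0.51, and Mfap2 turned to -0.029 under median-ratio scaling. Without cells with markers of other types, 4 of the 30 were higher and 11 lower in both E13.5 captures (13.3% and 36.7%, against 28.2% and 20.2% of all genes). With them 9 were higher and 8 lower, shares near the 26.1% and 24.2% of all genes. Mfap4, a protein of elastic microfibrils, averaged 211, 99.03 and 390 RPKM in Acta2-high cells, against 174, 68.5 and 170 RPKM in Acta2-negative cells. Sparc, a collagen-binding glycoprotein, averaged 474, 386 and 560 RPKM in Acta2-high cells, against 570, 468 and 1179 RPKM in Acta2-negative cells, a log2 difference of -0.54 ± 0.23 (SE). Dcn, a small proteoglycan that binds collagen, was lower on average (388 ± 218 RPKM in Acta2-high and 799 ± 578 RPKM in Acta2-negative cells, SD, n = 3), though it was detected in 81.8% and 57.9% of cells.

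Of 17 basement membrane genes 1 was higher in every capture (Nid1) and 5 were lower (Col18a1, Lamb1, Lamc1, Nid2, Hspg2), with a median of -0.09. These shares were 5.88% and 29.4%, against 14.3% and 8.81% of all genes. Nid2, nidogen-2, averaged 10.9, 10.3 and 2.46 RPKM in Acta2-high cells, against 68.5, 34.7 and 206 RPKM in Acta2-negative cells, without overlap. Without cells with markers of other types, 5 of the 17 were higher and 6 lower in both E13.5 captures (29.4% and 35.3%, against 28.2% and 20.2% of all genes), and with them 2 were higher and 8 lower (11.8% and 47.1%, against 26.1% and 24.2%). Of 20 integrin and focal adhesion genes 5 were higher (Itga4, Itga8, Fermt2, Zyx, Ptk2) and 2 lower (Itga5, Itga6) in every capture. These shares were 25.0% and 10.0%, against 14.3% and 8.81% of all genes. None of these genes passed the threshold.

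Cell cycle genes were more often higher in Acta2-high cells. Of 28 genes of G2 and mitosis, 12 were higher in every capture (42.9%, against 14.3% of all genes) and none lower, with a median of 0.76. In both E13.5 captures 24 of the 28 were higher (85.7%, against 26.1%), and without cells with markers of other types 17 were (60.7%, against 28.2%). Ube2c, a ubiquitin-conjugating enzyme of mitosis, averaged 72.01, 20.8 and 133 RPKM in Acta2-high cells, against 5.91, 9.52 and 32.5 RPKM in Acta2-negative cells. Not every member had this direction at E16.5. Ccnb2, a mitotic cyclin, averaged 44.7 and 148 RPKM in Acta2-high cells of the E13.5 captures, against 8.33 and 30.4 RPKM in Acta2-negative cells, but 20.9 RPKM against 289 RPKM in E16.5 capture 2. Top2a, a topoisomerase of dividing cells, averaged 49.2, 57.5 and 106.02 RPKM in Acta2-high cells, against 51.7, 28.8 and 111.96 RPKM in Acta2-negative cells. The summed level of the 28 genes was 980.1 and 888.5 RPKM in Acta2-high and 536.6 and 288.1 RPKM in Acta2-negative cells of the E13.5 captures, and 1143 and 1584 RPKM in E16.5 capture 2. Of 22 DNA replication genes 8 were higher in every capture (36.4%, against 14.3% of all genes) and none lower, with a median of 0.98. Detected genes per cell were also higher in Acta2-high cells, and their part in these counts was not tested.

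Counted by cell, the difference was smaller. A cell with 3 or more of 6 cell cycle genes at 5 RPKM or more was called dividing. Such cells were 6 of 18 Acta2-high and 2 of 9 Acta2-negative cells in E13.5 capture 1, 4 of 11 and 6 of 25 cells in E13.5 capture 2, and 3 of 6 and 2 of 3 cells in E16.5 capture 2. The mean shares were 39.9 ± 8.88% and 37.6 ± 25.2% (SD, n = 3), a difference of 2.27 points with a two-sided exact sign-flip permutation p of 1. The difference was -2.15 points without E13.5 capture 1, -2.78 points without E13.5 capture 2 and 11.7 points without E16.5 capture 2. Cdkn1c averaged 69.9 and 38.1 RPKM in Acta2-high cells of the E13.5 captures, against 177 and 323 RPKM in Acta2-negative cells, but 44.7 RPKM against 23.8 RPKM in E16.5 capture 2. It was detected in 22 of 44 Acta2-high and 33 of 38 Acta2-negative cells.

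**Figure D4:**
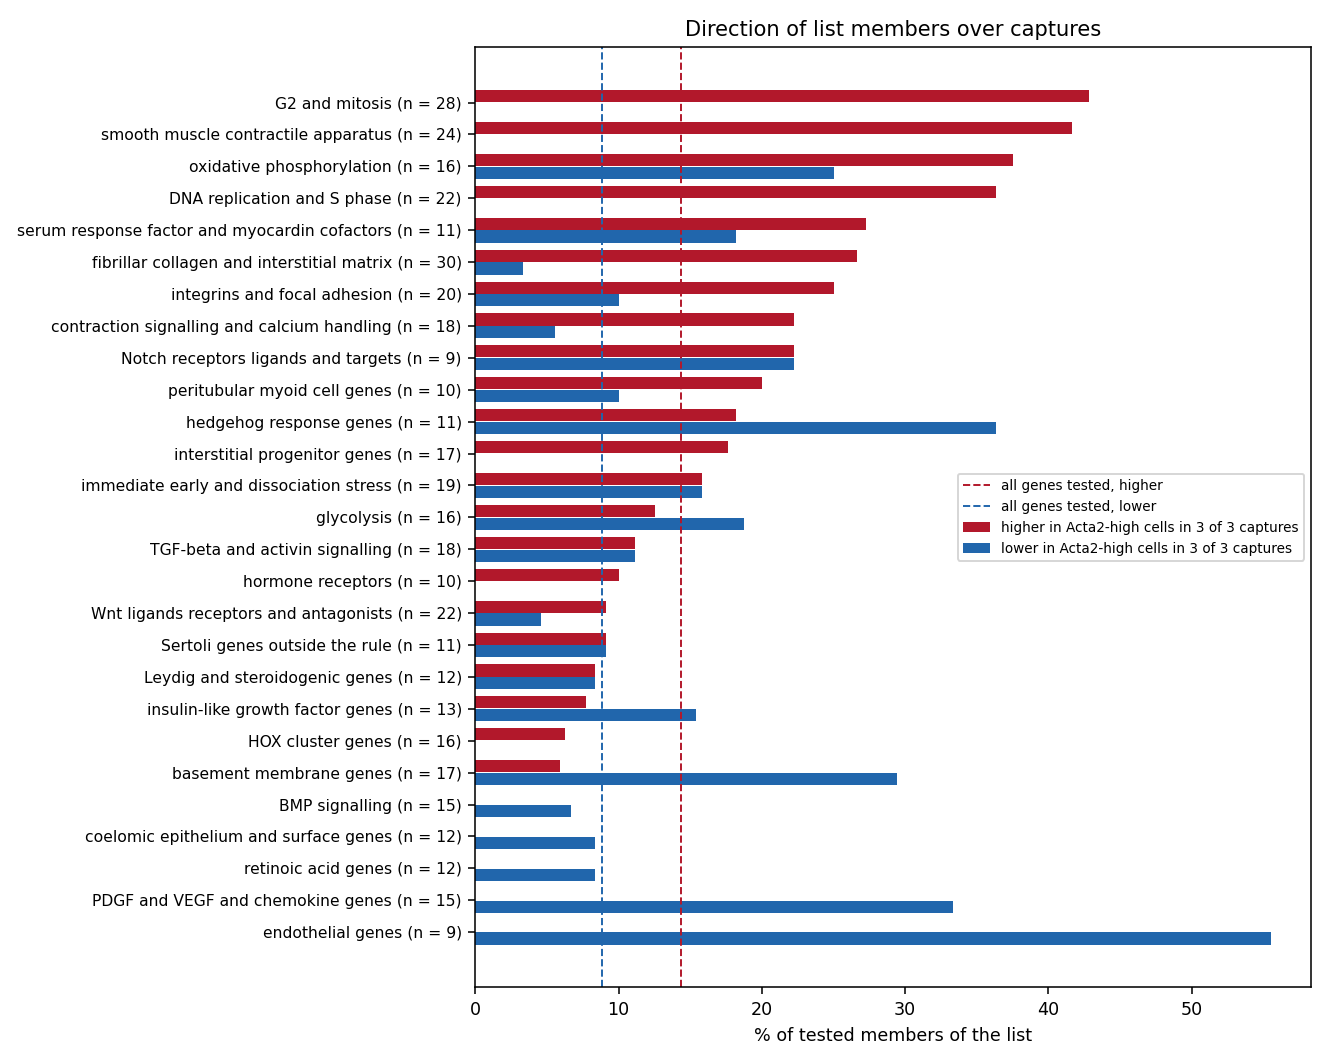
Share of the tested members of each list that were higher (red) or lower (blue) in Acta2-high cells in 3 of 3 captures, for lists with 9 or more tested members. Dashed lines give these shares over all genes, 14.3% higher and 8.81% lower. Contractile, mitosis and DNA replication genes lie beyond the red line with no blue bar, and endothelial genes have the longest blue bar, at 55.6%.

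The genes of this and the next paragraph were chosen by small unadjusted p-values or for their values. Itm2a, an integral membrane protein, averaged 889, 469 and 674 RPKM in Acta2-high cells, against 1932, 1486 and 1877 RPKM in Acta2-negative cells, without overlap. Its log2 difference was -1.42 ± 0.16 (SE; limma unadjusted p = 2.8e-05, adjusted p = 0.287), and over 20 other settings it ran from -1.78 to -0.68. Over single cells the medians lay closer, at 600 RPKM in Acta2-high and 750 RPKM in Acta2-negative cells, whose highest cell had 8710 RPKM. Agtr2, the type 2 angiotensin receptor, was detected in 3 of 44 Acta2-high and 13 of 38 Acta2-negative cells, and differed by -5.70 ± 1.39 (SE). Kitl, the ligand of the receptor Kit, averaged 0.467, 1.76 and 1.95 RPKM in Acta2-high cells, against 25.2, 16.4 and 221 RPKM in Acta2-negative cells. Rdh10, an enzyme of retinoic acid synthesis, averaged 0.305, 0.0853 and 0 RPKM in Acta2-high cells, against 16.8, 16.2 and 28.9 RPKM in Acta2-negative cells. Each of these genes apart from Itm2a had a limma adjusted p of 0.919, and each was detected in fewer than 18 of the 38 Acta2-negative cells.

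Among genes on the higher side, Slc18a2, a vesicular monoamine transporter, averaged 12.3, 21.9 and 14.5 RPKM in Acta2-high cells, against 0, 1.63 and 0 RPKM in Acta2-negative cells, and was detected in 15 of 44 and 2 of 38 cells. Hmgcs1, an early enzyme of cholesterol synthesis, averaged 228 ± 33.4 RPKM in Acta2-high and 83.1 ± 22.5 RPKM in Acta2-negative cells (SD, n = 3). Abracl was detected in 43 of 44 and 25 of 38 cells, with 203 ± 50.7 and 66.5 ± 55.9 RPKM. The values of each of these 3 genes did not overlap between the classes. Their log2 differences were 3.60 ± 0.94, 1.47 ± 0.36 and 2.51 ± 0.77 (SE), each with a limma adjusted p of 0.919. The reporter transcript eGFP averaged 567, 534 and 203 RPKM in Acta2-high cells, against 1038, 838 and 962 RPKM in Acta2-negative cells. It was detected in 39 of 44 Acta2-high and 32 of 38 Acta2-negative cells, and its log2 difference of -1.25 turned to 0.50 with log2 values averaged over cells within E13.5. Nr5a1 differed by -0.28 (limma 95% interval -2.45 to 1.88).

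Of 9 endothelial genes none was higher and 5 were lower in every capture (Cdh5, Kdr, Egfl7, Esam, Eng; 55.6%, against 8.81% of all genes), with a median of -2.38. Without cells with markers of other types, 1 of the 9 was lower in both E13.5 captures (11.1%, against 20.2% of all genes), whereas 5 were with them (55.6%, against 24.2%). Those cells were chosen in part by endothelial markers, so this drop is built in. Pecam1, an adhesion molecule of endothelium, was at most 0.00143 RPKM in Acta2-high cells, against 19.6, 0 and 72.4 RPKM in Acta2-negative cells. Of 12 coelomic epithelium and surface genes, Aldh1a2, an enzyme of retinoic acid synthesis, was lower in every capture (8.33%, near the 8.81% of all genes). Wt1, a transcription factor of that epithelium and of Sertoli cells, averaged 49.9 ± 22.5 RPKM in Acta2-high and 48.4 ± 22.5 RPKM in Acta2-negative cells (SD, n = 3). Upk1b, a uroplakin, was detected in 1 of 44 Acta2-high and 6 of 38 Acta2-negative cells. Of 12 Leydig genes outside the rule 1 was higher and 1 lower, and Sertoli genes outside the rule gave 1 higher (Defb19) and 1 lower (Inha) of 11. Among 16 oxidative phosphorylation genes 6 were higher (37.5%) and 4 lower (25.0%). Among 16 glycolysis genes 2 were higher and 3 lower, and among 19 immediate early and dissociation stress genes 3 and 3. The counts from the Leydig genes on are for every capture, where 14.3% of all genes were higher and 8.81% lower.

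E11.5 capture 1 was the only earlier capture with 3 or more cells of each class, 5 Acta2-high and 41 Acta2-negative. Of the 10 contractile genes 9 were higher in its Acta2-high cells, all but Myh11, where 33.6% of all tested genes were higher and 65.2% lower. Tagln averaged 89.8 RPKM in Acta2-high and 15.1 RPKM in Acta2-negative cells, Cnn2 290 and 92.3 RPKM, Tpm1 215 and 94.8 RPKM, and Flna 132 and 35.1 RPKM. Myl9 was closer, at 149 and 120 RPKM. Itm2a had 239 RPKM in Acta2-high and 479 RPKM in Acta2-negative cells, and Agtr2 was listed at 0 in Acta2-high cells against 33.3 RPKM. Other described genes that had 1 sign in all 3 later captures had the opposite one there, among them Gli1, Gli2, Myocd, Heyl, Hmgcs1, Mfap2 and Ube2c, which were lower in Acta2-high cells, and Sparc, Rdh10 and Kdr, which were higher. Of the genes in 1 direction in the 3 later captures, 534 of 1489 higher ones (35.9%) and 560 of 914 lower ones (61.3%) had the same direction here, each near the share of all genes. The capture has no replicate. Its classes also differed in genes that were close in the later captures. Gata4, a gene of the Leydig list, averaged 0.0445 RPKM in Acta2-high and 45.4 RPKM in Acta2-negative cells. Pdgfra averaged 177 and 33.8 RPKM. Over the 3 later captures their log2 differences were -0.10 and 0.07. The eGFP transcript had 282 and 1940 RPKM. Whether these classes hold the same kinds of cell as the later ones was not tested.

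In E16.5 capture 1, all 10 contractile genes were higher in the mean of 9 Acta2-high cells than in the lone Acta2-negative cell, where 71.6% of all tested genes were higher. Counted over 4 of 4 captures with that cell, 10 of the 24 contractile genes were higher (41.7%, against 10.9% of all genes). None was lower (2.32% of all genes). Mitosis and DNA replication genes kept their counts, 12 of 28 and 8 of 22 higher. The lower counts shrank, from 5 to 0 of 17 basement membrane genes and from 5 to 0 of 15 genes for PDGF, VEGF and chemokines. For hedgehog genes the lower count went from 4 to 2 of 11, and for endothelial genes from 5 to 1 of 9. Of 1489 genes higher in every capture of the fit, 1129 (75.8%) kept that direction with this cell. Of 914 lower ones, 241 (26.4%) did. Tagln had 692 RPKM against 0.328 RPKM, Cnn2 528 against 20.96 RPKM, Myl9 653 against 78.9 RPKM and Tpm1 359 against 9.39 RPKM. Itm2a had 646 RPKM in Acta2-high cells against 1109 RPKM in the lone cell, and Agtr2 16.2 against 255 RPKM. Kitl and Rdh10 ran against their direction in the fit, at 2.09 against 0.903 RPKM and 11.1 against 0.501 RPKM. Cdkn1c had 18.3 RPKM against 341 RPKM, unlike in E16.5 capture 2.

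The class difference was compared between stages, with 1 pair of captures at E16.5 and 2 at E13.5. In limma 455 of 10380 genes (4.38%) passed an adjusted p of 0.05, 308 with a higher and 147 with a lower difference at E16.5, and 19.8% had an unadjusted p below 0.05. The E16.5 side is 1 pair of captures with 3 Acta2-negative cells, so the fit holds no spread between E16.5 captures and takes it from E13.5. Id2, an inhibitor of differentiation factors, averaged 861 RPKM in Acta2-high and 0.319 RPKM in Acta2-negative cells of E16.5 capture 2, against 1204 and 422 RPKM in Acta2-high and 1335 and 839 RPKM in Acta2-negative cells of the E13.5 captures. Sct, the hormone secretin, had 0 RPKM in Acta2-high and 66.9 RPKM in Acta2-negative cells at E16.5, against 64.2 and 5.20 RPKM in Acta2-high and 0 and 2.12 RPKM in Acta2-negative cells at E13.5. With no filter on low values 0 genes passed in limma, with 1580 at an unadjusted p below 0.05. With the lone Acta2-negative cell of E16.5 capture 1 taken in, 0 genes passed in limma, with 663 at an unadjusted p below 0.05.

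Within Acta2-high cells, E16.5 against E13.5 gave 0 of 9446 genes past the threshold in limma (0.0%) and 682 at an unadjusted p below 0.05 (7.22%). Myl9 averaged 653 and 556 RPKM at E16.5, against 398 and 263 RPKM at E13.5, and Tcf21 530 and 484 RPKM at E16.5, against 282 and 247 RPKM at E13.5, both without overlap. Tagln averaged 692 and 184 RPKM at E16.5, against 162 and 95.96 RPKM at E13.5. The count was 566 without E16.5 capture 1, 47 without E16.5 capture 2, 9 without E13.5 capture 1 and 2 without E13.5 capture 2, so it depends on which captures are used. A lone capture in such a fit is assumed to vary like the others.

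Within Acta2-negative cells, 1218 of 8338 genes (14.6%) passed in limma, 284 higher and 934 lower at E16.5, which is 1 capture of 3 cells, and 29.9% had an unadjusted p below 0.05. This fit too holds no spread between E16.5 captures. Cd34, a surface protein of endothelial and progenitor cells, averaged 325 RPKM there, against 6.14 and 0.0679 RPKM at E13.5. Gimap4, an immune-associated GTPase, averaged 326 RPKM there, against 18.01 and 0 RPKM at E13.5, and 1 of the 3 cells carried endothelial markers. Median-ratio scaling gave 481 higher and 711 lower, with a median difference over all genes of -0.51, against -1.10 without it. With no filter on low values 0 genes passed in limma, with 1549 at an unadjusted p below 0.05. With the lone cell of E16.5 capture 1 taken in, 0 genes passed in limma, with 2117 at an unadjusted p below 0.05.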

How the data were processed

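Single cells were measured by RNA-seq after capture on C1 chips. The authors deposited 1 table of RPKM, with 16459 genes and 400 of the 435 labelled cells. The other 35 were not used here. The submitters' processing notes name GRCm38.p3 and mm10, and for the aligner and counter the sources used here give no name. Low values were whole multiples of 1 read, within 0.05, for 69.4% of values in the median cell (15900 symbols matched to GENCODE M21), so counts were not recovered and the depth behind each value is unknown.

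RPKM were averaged over the cells of a class in a capture, with 3 or more cells of 3000 or more detected genes. The log2 of the mean plus a pseudocount of 1 was fitted in limma 3.58.1 (R 4.3.3; trend, robust empirical Bayes) with a term for capture, for genes with a mean of at least 1 RPKM in at least 2 values. Differences on this scale understate changes of low genes. Acta2 and the 10 Sertoli and Leydig genes of the cell rule were not tested. P-values were two-sided, with Benjamini-Hochberg adjustment and calls at 0.05. They measure the spread between captures, which may be technical. The pairing comes from the capture date in the labels, since both classes of a capture shared chip and run. No doublet caller was run. Tables were made in Python 3.11.15 with pandas 2.3.3, NumPy 2.4.6 and SciPy 1.17.1.

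The members and gene lists were chosen with earlier results of these data known. The rule named genes past the threshold and, for a list without any, its 2 members with the highest mean level, 68 genes in all. Another 39 were described after their values were seen, among them Cnn2, Tpm1, Itm2a, Agtr2 and Slc18a2. Alternatives were other Acta2 limits, pseudocounts, filters, averages, scalings and cell sets, and leaving out each capture. Values of some genes are not reported here, though list counts include them.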

Additional observations from a re-analysis of the deposited data

Results flagged for a closer look

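The genes described and 3 measures of the Acta2-high cells made 110 groups of 4 captures. In these, 13 genes had 1 capture far from the other 3. Chance gives about 1 in 20 for normally distributed values. Esam, Fcer1g, Pecam1 and Upk1b were listed at 0 in the other 3 captures, which forces the flag, so that rate does not apply to them. Esam and Fcer1g were each detected in 1 of 44 Acta2-high cells. E13.5 capture 1 stood above the others for Esam (2.83 RPKM), Fcer1g (1.22 RPKM), Pecam1 (0.00143 RPKM) and Ndufa4 (620 RPKM), and below them for Kitl (0.467 RPKM). E13.5 capture 2 stood above for the surface epithelium genes Upk1b (2.45 RPKM), Upk3b (7.52 RPKM) and Krt19 (4.58 RPKM), and 2 of its 11 Acta2-high cells carried coelomic epithelium markers. E16.5 capture 1 stood above for S100a16 (13.8 RPKM) and Rdh10 (11.1 RPKM). E16.5 capture 2 stood above for Kit (18.7 RPKM) and Tubb3 (19.8 RPKM) and below for eGFP (203 RPKM).

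For 13 of the genes described, the difference between Acta2-high and Acta2-negative cells at E16.5 was past the adjusted threshold in limma against that at E13.5, in a fit whose E16.5 side is 1 pair of captures. On the log2 scale it was higher at E16.5 for Id2 (9.92), Id3 (3.66), Igfbp5 (3.12), Ilk (6.20), Mcm4 (4.23), Cdkn2d (5.73), Egr1 (1.48), Btg2 (1.75), Ldha (2.44), Abracl (3.78) and Mcm3 (5.10), and lower for Ccnb2 (-6.00) and eGFP (-1.48). These values rest on 3 Acta2-negative cells of E16.5 capture 2, and no gene passed in limma with the lone cell of E16.5 capture 1 taken in (663 at an unadjusted p below 0.05).

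Among the 80 cells set aside by their Sertoli or Leydig genes, 8 had Acta2 at 100 RPKM or more. E13.5 capture 1 held 6 of them among its 25 such cells, and the other captures 0 of 14, 1 of 21 and 1 of 20. Whether they are wells with more than 1 cell was not tested.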

How the results depend on the processing

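In limma the class comparison called 0 genes in 19 of 20 other settings, with 332 to 638 at an unadjusted p below 0.05, and 1 gene with log2 values averaged over cells within E13.5. The settings are not all distinct. No filter on detected genes gave the main fit again, and leaving out E16.5 capture 2 is the fit within E13.5. Without the replicate block (no pairing by capture) it called 0, with 444 at an unadjusted p below 0.05. The stage difference called 455, and 199 with log2 values averaged over cells, 714 at a pseudocount of 0.1, and 0 with no filter on low values or with classes of 1 cell or more. Acta2-high cells over stages called 0, 1 with log2 values averaged, and 2 to 566 without 1 capture. Acta2-negative cells over stages called 1218, 3160 at a pseudocount of 0.1, and 0 with no filter or with classes of 1 cell or more. The cause of these shifts was not tested. Leaving out a capture could not be fitted for the stage difference or for Acta2-negative cells, which had no residual degrees of freedom left. The paired fit never held E16.5 capture 1, and E16.5 alone is 1 pair with no test.

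The dividing-cell difference ran from -2.78 to 11.7 points without 1 capture (-2.15 without E13.5 capture 1). The sign turned for Smo (1.17 with classes of 1 cell, 0.79 with Acta2 listed at 0, 0.42 with log2 values averaged within E13.5), Wnt5a (-0.018) and Nid1 (-0.22) with classes of 1 cell, Aldoa (0.17) with Acta2 listed at 0, Mcm5 (-0.092) with a lower limit of 10 RPKM, eGFP (0.50) with log2 values averaged within E13.5, and Mfap2 (-0.034 with log2 values averaged, -0.029 with median-ratio scaling, -0.19 with an upper limit of 200 RPKM, -0.34 without cells with markers of other types). In all, 179 of 2066 gene values changed sign, in 46 of the genes described (68 by the rule and 39 others). Classes of 1 cell, weights by cell number and log2 values averaged within E13.5 were chosen after seeing the data, as were the list counts in other sets of captures or cells. The 3 Acta2-negative cells limit all statements on E16.5.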
